A study of Mus musculus with 32 samples.

Results

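Hyaluronan, the long sugar polymer of the extracellular matrix, was followed through the genes that make, cut and bind it in 3T3-L1 cells during fat cell differentiation. The set held 7 of the 20560 genes in the deposited table, taken by gene symbol: the synthase genes Has1, Has2 and Has3, the breakdown genes Cemip, Hyal1 and Hyal2, and the receptor gene Cd44. They were selected on the knockdown values of day 11, where Cemip was among the largest falls, so the day 11 differences between knockdown and control are given below as a description, with no test. The 3T3-L1 line is an established mouse preadipocyte line whose cells become fat-like cells under hormone treatment. Zbtb9, which encodes a zinc finger protein with a BTB domain, was knocked down with either of 2 short hairpin RNAs, and a scramble hairpin served as the control. RNA was sequenced at days 0, 3, 7 and 11, with 4 control libraries and 4 knockdown libraries a day, 2 from each hairpin (shRNA 1 and shRNA 2). All arms received the same induction: 1 µM dexamethasone, 0.5 mM IBMX and 167 nM insulin at day 0, insulin alone from day 3, and no addition from day 7. The labels call the cells preadipocytes at day 0, premature adipocytes at days 3 and 7 and mature adipocytes at day 11, and give the control cells as wild type. The replicates are numbered as biological replicates. Nothing in the labels says how far their cultures were kept apart, so p-values measure the spread between these libraries only.

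Hyaluronan synthases sit in the plasma membrane, join UDP-glucuronic acid and UDP-N-acetylglucosamine into a chain and push it out of the cell. Long chains are cut outside the cell, in part by CEMIP, and at the surface by HYAL2, and the pieces are taken up and digested in lysosomes by HYAL1 and by enzymes that remove single sugars. CD44 is the main cell surface receptor for hyaluronan, and in fat tissue the polymer belongs to the matrix around preadipocytes and adipocytes.

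Values are given on 2 scales. Normalized reads are whole reads rebuilt from the deposited log2 values and divided by the size factor of the library. Log2 changes are differences of the deposited log2 values, which draw genes with few reads towards their mean and so understate their changes, and a call means that limma's adjusted p was under 0.05. The libraries held 22280363 to 31073724 rebuilt reads in genes, and at day 11 the control libraries (26486058 to 31073724) were deeper than the knockdown libraries (22839503 to 25511851). Zbtb9 itself had few reads: 6.35 to 22.3 normalized reads in control libraries and 0 to 19.3 in knockdown libraries, with knockdown means at 61.9%, 50.6%, 42.7% and 54.5% of control at days 0, 3, 7 and 11. All knockdown libraries lay below all control libraries at days 0 and 7, and the groups overlapped at days 3 and 11. Zbtb9 was not called at day 0 (limma adjusted p = 0.271) and was called lower at day 7 (adjusted p = 0.0288). At day 11 shRNA 1 stood at 88.5% and shRNA 2 at 20.5% of control. There shRNA 1 replicate 2 had 19.3 normalized reads, inside the control range of that day. In GENCODE M21, 84.4% of the exon bases of Zbtb9 also belong to another gene on the same strand, so these reads are an uncertain check of the labels. In control cells all 10 adipocyte markers were called higher than at day 0 at days 7 and 11, where 69.1% and 64.6% of all genes were called in either direction. From day 7 to day 11, labelled as the step from premature to mature, 3 were called higher and 6 lower (median -0.35), against 55.0% of all genes in either direction. Adipoq, an adipocyte hormone, went from 0.207 ± 0.414 normalized reads (SD, n = 4) at day 0 to 1709 ± 166 at day 7 and 2520 ± 323 at day 11, and Fabp4, a fatty acid carrier, from 88.8 ± 7.17 to 15510 ± 891 and back to 4687 ± 637. The leukocyte gene Ptprc had group means under 1 normalized read in both arms on all 4 days.

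Has2 and Cd44 were the most abundant members per length in both arms on every day, and Hyal2 came next. Reads per kb of exon can be set side by side between genes, and in control cells Has2 stood at 722 ± 21.4, 1200 ± 93.7, 440 ± 30.03 and 576 ± 22.6 normalized reads per kb at days 0, 3, 7 and 11 (SD, n = 4). The receptor gene Cd44 stood at 772 ± 10.5, 854 ± 21.9, 499 ± 27.5 and 555 ± 13.9 per kb on the same days, so its order with Has2 changed over the course. Hyal2 stayed between 234 and 317 per kb in control cells. Cemip went from 87.9 per kb at day 0 to 6.77, 4.89 and 15.1, while Hyal1 went from 11.3 to 3.70, 31.6 and 39.5, so Cemip was above Hyal1 at day 0 and below it at days 7 and 11. Their order at day 3 is uncertain, since 51.9% of the exon bases of Hyal1 are shared with other genes and its level per kb depends on whether reads there were counted. Has3 was between 3.42 and 5.55 per kb, and Has2 made up 98.6% to 99.6% of the summed per-length level of the 3 synthase genes in all 8 groups of arm and day.

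**Figure D1:**
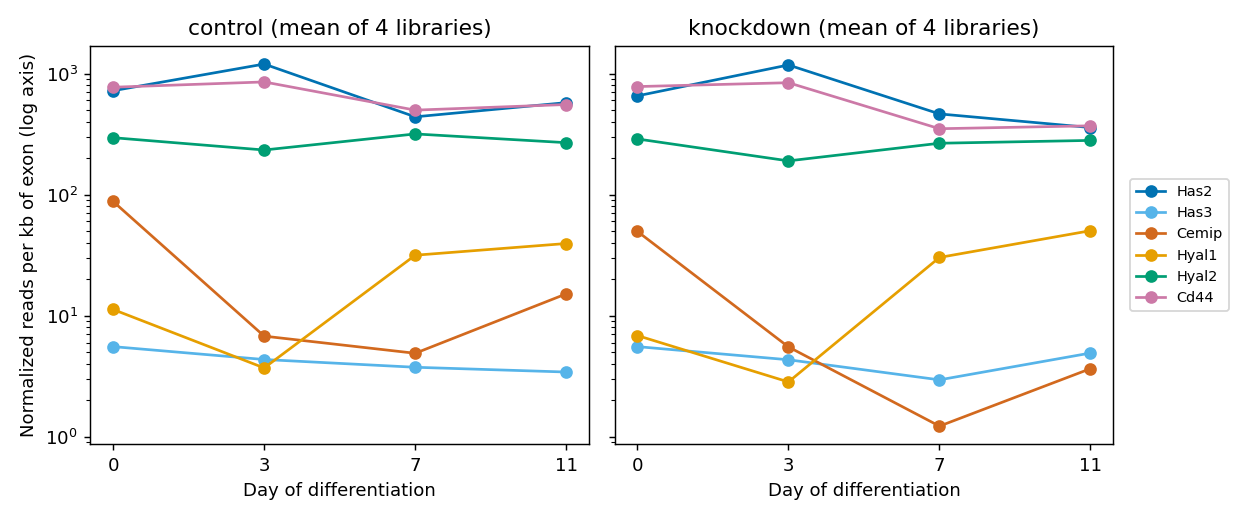
Level of 6 members per length. The x axis gives the day, the log y axis the mean normalized reads per kb of exon over 4 libraries, control on the left and knockdown on the right. Has2 and Cd44 lie uppermost on every day, and Cemip falls from 87.9 per kb at day 0 to 4.89 at day 7 in control cells and from 49.7 to 1.22 in knockdown cells.

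Has2, on the minus strand of chromosome 15 (15:56665627-56694539, GRCm38, GENCODE M21), encodes the main synthase of long hyaluronan chains in connective tissue cells. In control cells it rose at day 3, fell to its lowest level at day 7 and was between the levels of days 7 and 0 at day 11. The 4 control libraries had 2984, 3003, 3071 and 3185 normalized reads at day 0, and 4531, 5234, 5119 and 5462 at day 3. They had 1942, 1789, 1724 and 1995 at day 7, and 2491, 2472, 2298 and 2499 at day 11. No 2 days overlapped, and the order from high to low was day 3, day 0, day 11, day 7. The changes from day 0 were 0.70 (SE 0.048), -0.69 (SE 0.048) and -0.32 (SE 0.048) on the log2 scale at days 3, 7 and 11, with limma adjusted p-values of 5.73e-15, 1.61e-14 and 7.05e-07.

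In knockdown cells Has2 followed the same course to day 7 and then went lower. At day 0 shRNA 1 gave 2781 and 2656 normalized reads and shRNA 2 gave 2805 and 2856, all below the 4 control values, at 90.7% of the control mean. That difference was -0.14 on the log2 scale (SE 0.041, limma adjusted p = 0.101) and was not called, but it was with the hairpins as separate groups (adjusted p = 0.00258). At day 3 the hairpins parted: shRNA 1 gave 4412 and 4067, below every control library, and shRNA 2 gave 5773 and 5736, above every control library. The difference between the hairpins at day 3 was 0.43 (SE 0.061, limma adjusted p = 8.26e-06), while the mean of both differed from control by -0.04 (SE 0.119, adjusted p = 0.848). At day 7 all 4 knockdown values (1963, 1995, 1916 and 1999) lay within or just above the control range, and the change of 0.08 (SE 0.055, limma adjusted p = 0.26) was not called.

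At day 11 the hairpins again differed, this time with both below control. The shRNA 1 libraries had 1354 and 1059 normalized reads and the shRNA 2 libraries 1849 and 1814, against a lowest control value of 2298. The groups did not overlap, and shRNA 1 stood at 49.5% and shRNA 2 at 75.0% of the control mean of 2440 ± 95.5 (SD, n = 4). As a description, the difference from control was -0.69 on the log2 scale, and -0.54 without shRNA 1 replicate 2. The difference between the hairpins, which is another contrast of the same libraries, was 0.59 (SE 0.086, limma adjusted p = 0.000201).

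**Figure D2:**
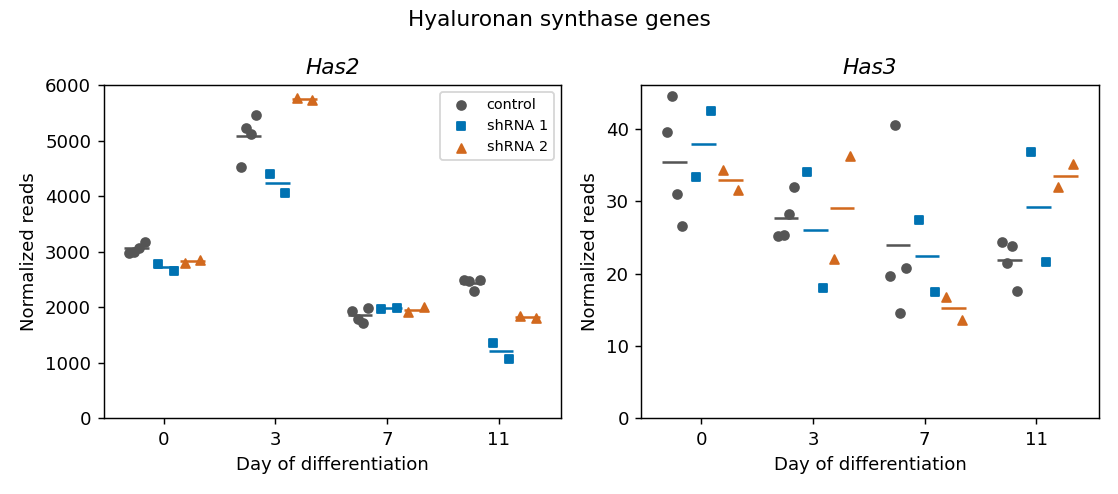
Normalized reads of Has2 (left) and Has3 (right) by day. Each point is 1 library, bars are means of 4 control libraries or of 2 libraries of a hairpin, and both y axes start at 0. Has2 rises at day 3 in all arms, and at day 11 the shRNA 1 libraries (1354 and 1059) lie below the shRNA 2 libraries (1849 and 1814), which lie below the controls.

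Has3, on the plus strand of chromosome 8, and Has1, on the minus strand of chromosome 17, encode the other synthases. Has3 had 13.6 to 44.5 normalized reads over the 32 libraries. In control cells its mean fell from 35.4 ± 8.15 normalized reads at day 0 to 27.7 ± 3.12, 23.9 ± 11.4 and 21.8 ± 3.05 (SD, n = 4). The falls from day 0 were called at day 7 (-0.31, SE 0.129, limma adjusted p = 0.0356) and day 11 (-0.34, SE 0.129, adjusted p = 0.0213) and not at day 3 (-0.18, adjusted p = 0.216; with equal totals -0.30, adjusted p = 0.0372). The day 7 call was lost without control replicate 1 or 2 of day 0 or replicate 1, 3 or 4 of day 7, with adjusted p-values of 0.0903, 0.126, 0.0853, 0.155 and 0.0726. The day 11 call was lost without control replicate 1 or 2 of day 0 or replicate 4 of day 11, at 0.06, 0.0851 and 0.0648. Knockdown and control overlapped on all 4 days, and none of the tested days gave a call (limma adjusted p = 0.979, 0.93 and 0.51 at days 0, 3 and 7). At day 11 the knockdown libraries had 36.8, 21.6, 31.9 and 35.1 and the control libraries 24.4, 21.5, 23.8 and 17.7, so that 3 of 4 knockdown values were above every control value. Has1 had 0 to 3 reads in each library, at or under the floor of 3 reads, and did not pass the filter on low values. No fold is given for it, and its transcript was not detectable above that floor at this depth.

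Cemip, on the minus strand of chromosome 7 (7:83932857-84086502, GRCm38, GENCODE M21), encodes a secreted and membrane-bound protein that binds hyaluronan and is needed for its cutting outside the cell. Its promoter window in RefSeq (GRCm38.p6, chr7:84086506-84086755, minus strand, the 250 bases before the start site) is shown with that of Cd44, since transcripts of these 2 members were both lower in knockdown cells at days 7 and 11. The capitals mark the matches to 9 motifs searched on both strands.
Cemip: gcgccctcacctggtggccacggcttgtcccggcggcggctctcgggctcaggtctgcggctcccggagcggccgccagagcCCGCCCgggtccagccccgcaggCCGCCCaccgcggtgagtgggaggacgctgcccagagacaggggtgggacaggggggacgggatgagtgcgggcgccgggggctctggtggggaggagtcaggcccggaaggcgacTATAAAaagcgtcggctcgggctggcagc
Cd44: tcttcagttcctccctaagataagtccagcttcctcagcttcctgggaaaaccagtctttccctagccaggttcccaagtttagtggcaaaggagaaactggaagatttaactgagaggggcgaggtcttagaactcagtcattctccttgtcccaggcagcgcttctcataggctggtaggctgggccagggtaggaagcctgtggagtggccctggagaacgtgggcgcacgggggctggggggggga
The Cemip window held a TATA box (TATAAA), found in 12.4% of 32851 RefSeq promoter windows of that length, beginning 29 bases before the start site. It also held the GC box (GGGCGG, 32.7% of windows) at 168 and 145 bases before the start, both on the reverse strand and so read as CCGCCC. The Cd44 window (chr2:102901666-102901915, minus strand) held neither these motifs nor the CCAAT box (CCAAT, 33.8%), AP-1 motif (TGANTCA, 6.7%), E-box (CACGTG, 6.0%), CRE (TGACGTCA, 1.5%), C/EBP motif (TTGCGCAA, 0.2%), glucocorticoid receptor half-site (AGAACA, 16.1%) or interferon-stimulated response element (3.0%). The Cemip window held none of these other motifs. A match or its absence describes these letters only. Of the 7 members, 5 matched an entry in the promoter table: Has1, Cemip, Hyal1, Hyal2 and Cd44.

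Cemip had the steepest course of all members in control cells. The 4 control libraries had 1030, 1078, 1033 and 1158 normalized reads at day 0, and 91.5, 68.8, 70.1 and 101 at day 3. They had 77.7, 61.9, 47.6 and 52.0 at day 7, and 225, 136, 211 and 170 at day 11. Days 3 and 7 overlapped, day 11 lay above both and below day 0, and the mean was 13-fold lower at day 3, 18-fold lower at day 7 and 5.80-fold lower at day 11 than at day 0. The log2 changes from day 0 to days 3 and 7 were -3.32 and -3.69 (SE 0.128 each, limma adjusted p = 1.05e-19 and 1.5e-20). The day 11 control libraries also entered the comparison that chose the gene, so their differences of -2.34 from day 0 and 1.36 from day 7 are given as a description. The fall from day 3 to day 7 was -0.37 (SE 0.128, limma adjusted p = 0.0109). This last call was lost without control replicate 4 of day 3 (-0.29, adjusted p = 0.0531) or replicate 3 of day 7 (-0.29, adjusted p = 0.0517), and with voom on the rebuilt reads (adjusted p = 0.0677).

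Knockdown cells had less Cemip RNA than control cells before any hormone was added. At day 0 the shRNA 1 libraries had 482 and 450 normalized reads and the shRNA 2 libraries 776 and 724, against a lowest control value of 1030. All knockdown values lay below all control values, and the hairpins were apart from each other, at 43.3% and 69.8% of the control mean. Over both hairpins the change was -0.80 (SE 0.156, limma adjusted p = 0.0278), and shRNA 2 was above shRNA 1 by 0.63 (SE 0.077, limma adjusted p = 1.4e-07). The call against control was lost without shRNA 1 replicate 1 (-0.70, adjusted p = 0.0544) and when any of the 4 control libraries was left out (adjusted p = 0.0824, 0.0946, 0.0886 and 0.0862 for replicates 1 to 4). The change itself ranged from -0.92 to -0.68 over the 8 fits that left out 1 library.

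At day 3, when Cemip was low in all arms, the knockdown libraries had 60.2, 64.5, 74.0 and 71.4 normalized reads and overlapped the 4 control values. The change of -0.22 (SE 0.125, limma adjusted p = 0.208) was not called. At day 7 the arms parted again: shRNA 1 gave 10.2 and 3.48 normalized reads and shRNA 2 gave 32.5 and 13.6, all below the lowest control value of 47.6. These rest on 3 to 31 reads a library. The knockdown mean was 25.0% of control, 11.4% for shRNA 1 and 38.6% for shRNA 2, and the log2 change was -1.21 (SE 0.195, limma adjusted p = 0.000164). With voom on the rebuilt reads it was -2.29 (adjusted p = 0.000485). The hairpins differed at day 7 by 0.58 (SE 0.208, limma adjusted p = 0.0557), which was not called. It was called without shRNA 2 replicate 2 (0.92, adjusted p = 0.0125), with control replicate 1 or 3 left out (adjusted p = 0.0479 and 0.0432), with equal totals (0.62, adjusted p = 0.0491) and on log2 of the rebuilt reads plus 1 (1.65, adjusted p = 0.0133).

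The day 11 values are those that led to the choice of the set. The shRNA 1 libraries had 60.3 and 37.5 normalized reads, the shRNA 2 libraries 51.0 and 29.8, and the lowest control library 136. All 4 knockdown values lay below the controls, and the ranges of the hairpins overlapped, with means at 26.4% and 21.8% of control. The difference was -1.67 on the log2 scale, the 6th largest fall among 13281 genes, and -2.05 on log2 of the rebuilt normalized reads plus 1. Without shRNA 1 replicate 2 it was -1.62. The knockdown mean nevertheless went from 15.0 normalized reads at day 7 to 44.6 at day 11, as the control mean went from 59.8 to 185.

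**Figure D3:**
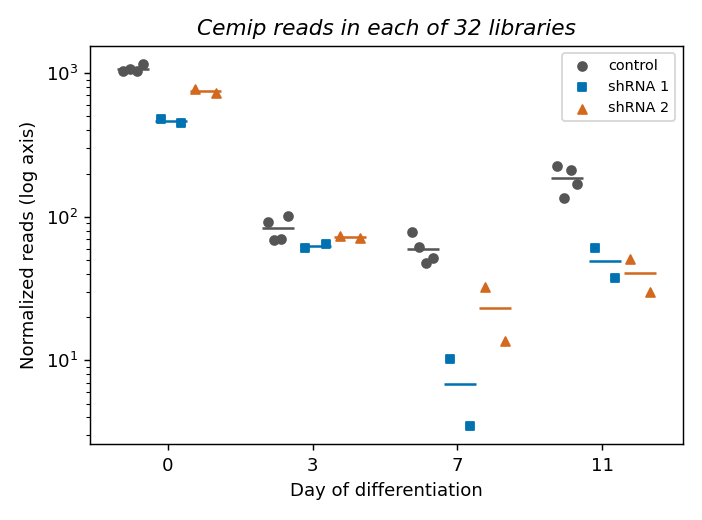
Cemip in the 32 libraries. The x axis gives the day and the log y axis normalized reads; points are single libraries and bars means of 4 control libraries or 2 libraries of a hairpin. The gene drops between days 0 and 3 in all arms, and the knockdown points lie below all control points at days 0, 7 and 11 but not at day 3.

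Hyal2 and Hyal1 lie 4147 bases apart on the plus strand of chromosome 9 (9:107567945-107572779 and 9:107576927-107581710, GRCm38, GENCODE M21) and moved differently. Hyal2, which encodes a surface-anchored hyaluronidase, kept a narrow range: control means were 973 ± 45.4, 770 ± 29.4, 1045 ± 72.4 and 885 ± 30.7 normalized reads at days 0, 3, 7 and 11 (SD, n = 4). It fell at day 3 (-0.32, SE 0.053, limma adjusted p = 1.78e-06) and rose from day 3 to day 7 (0.41, SE 0.053, adjusted p = 1.41e-08). Its day 7 level differed from day 0 by 0.10 (adjusted p = 0.105), which became a call of 0.14 without control replicate 4 of day 7 (adjusted p = 0.0235). The change from day 0 to day 11 was -0.13 (SE 0.053, limma adjusted p = 0.032), a call lost without control replicate 2 or 3 of day 0 or replicate 3 or 4 of day 11 (adjusted p = 0.126, 0.0533, 0.0785 and 0.0752).

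In knockdown cells Hyal2 was called lower than in control cells at days 3 and 7 and was not called at day 0. At day 3 the knockdown libraries had 621, 559, 709 and 616 normalized reads and the control libraries 762, 738, 770 and 809. The groups did not overlap, and the change was -0.28 (SE 0.070, limma adjusted p = 0.00813). At day 7 the knockdown libraries had 830, 857, 849 and 966 and the control libraries 1037, 1120, 1075 and 949. Here shRNA 2 replicate 2 was above the lowest control library, and the change was -0.24 (SE 0.067, limma adjusted p = 0.00787). At day 0 the change was -0.03 (SE 0.051, limma adjusted p = 0.76). At day 11 the means were 924 ± 14.2 in knockdown and 885 ± 30.7 in control cells, with overlap and a difference of 0.06 as a description.

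Hyal1, which encodes the lysosomal hyaluronidase, rose late. Control libraries had 48.8, 44.5, 45.0 and 31.5 normalized reads at day 0 and 22.1, 7.40, 12.6 and 13.8 at day 3. They had 123, 118, 123 and 113 at day 7, and 120, 179, 125 and 171 at day 11. Day 3 was below and days 7 and 11 above every day 0 library, and days 7 and 11 overlapped. The changes from day 0 were -0.85, 1.11 and 1.35 on the log2 scale (SE 0.129 each, limma adjusted p = 3.68e-07, 2.74e-09 and 3.41e-11). The change from day 7 to day 11 was 0.25 (limma adjusted p = 0.107), which was not called, but was called without control replicate 1 of day 11 (0.32, adjusted p = 0.0484). In GENCODE M21, 51.9% of the exon bases of Hyal1 also belong to other genes, chiefly Naa80 on the same strand (50.8%). The build, the annotation and the handling of shared exons are not given in the sources used here, so part of these reads is uncertain.

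Knockdown did not give a called change of Hyal1 at days 0, 3 or 7. At day 0 shRNA 1 gave 12.02 and 17.7 normalized reads, below every control library, and shRNA 2 gave 40.4 and 33.4, within the control range. The mean change was -0.48 (SE 0.193, limma adjusted p = 0.201), and it became a call when all 32 libraries shared 1 fit (adjusted p = 0.00484) or the hairpins were separate groups (0.00317). The hairpins differed by 0.71 (SE 0.170, limma adjusted p = 0.00139). At day 3 the knockdown libraries had 11.4, 3.17, 14.0 and 14.3 normalized reads, overlapping the controls, with a change of -0.14 (SE 0.152, limma adjusted p = 0.55). At day 7 they had 119, 115, 104 and 120, also overlapping (change -0.05, SE 0.102, limma adjusted p = 0.716). At day 11 shRNA 1 gave 222 and 225, above every control library, and shRNA 2 gave 144 and 171, within the control range. The hairpins differed there by -0.42 (SE 0.167, limma adjusted p = 0.0844), which was not called.

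Cd44, on the minus strand of chromosome 2 (2:102811141-102901665, GRCm38, GENCODE M21), encodes the receptor that holds hyaluronan at the cell surface. In control cells it had 5128, 5260, 5243 and 5291 normalized reads at day 0 and 5575, 5825, 5926 and 5812 at day 3. It then had 3189, 3286, 3444 and 3614 at day 7, and 3724, 3709, 3905 and 3715 at day 11. The 4 days did not overlap, and the order from high to low was day 3, day 0, day 11, day 7, as for Has2. The falls from day 0 were -0.61 at day 7 and -0.46 at day 11 (SE 0.036 each, limma adjusted p = 1.29e-16 and 3.17e-13). The rise at day 3 was 0.14 (SE 0.036, limma adjusted p = 0.000782), and 0.01 (adjusted p = 0.743) when all libraries were scaled to equal totals, a setting that shifted every change from day 0 to day 3 by -0.13.

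At day 0 the Cd44 levels of the hairpins lay on either side of the control level. The shRNA 1 libraries had 6063 and 5916 normalized reads, above every control library, and the shRNA 2 libraries 4666 and 4541, below every control library. The hairpins differed by -0.37 (SE 0.040, limma adjusted p = 1.98e-08), and their mean differed from control by 0.01 (SE 0.088, adjusted p = 0.98). At day 3 all arms were between 5292 and 5972, and the change was -0.02 (SE 0.045, limma adjusted p = 0.763). The hairpins differed at day 3 by -0.10 (limma adjusted p = 0.136), or by -0.15 without shRNA 2 replicate 1 (adjusted p = 0.0418).

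At day 7 Cd44 was lower with both hairpins. The shRNA 1 libraries had 2493 and 2303 normalized reads and the shRNA 2 libraries 2370 and 2335, and the control libraries 3189 to 3614. The groups were far apart, and shRNA 1 stood at 70.9% and shRNA 2 at 69.5% of control. The change was -0.49 (SE 0.053, limma adjusted p = 1.77e-06), and the hairpins differed by -0.03 (SE 0.064, adjusted p = 0.841). At day 11 the knockdown libraries had 2624, 2421, 2577 and 2419 and the control libraries 3709 to 3905, again without overlap. That difference was -0.56 as a description, with shRNA 1 at 67.0% and shRNA 2 at 66.4% of control.

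**Figure D4:**
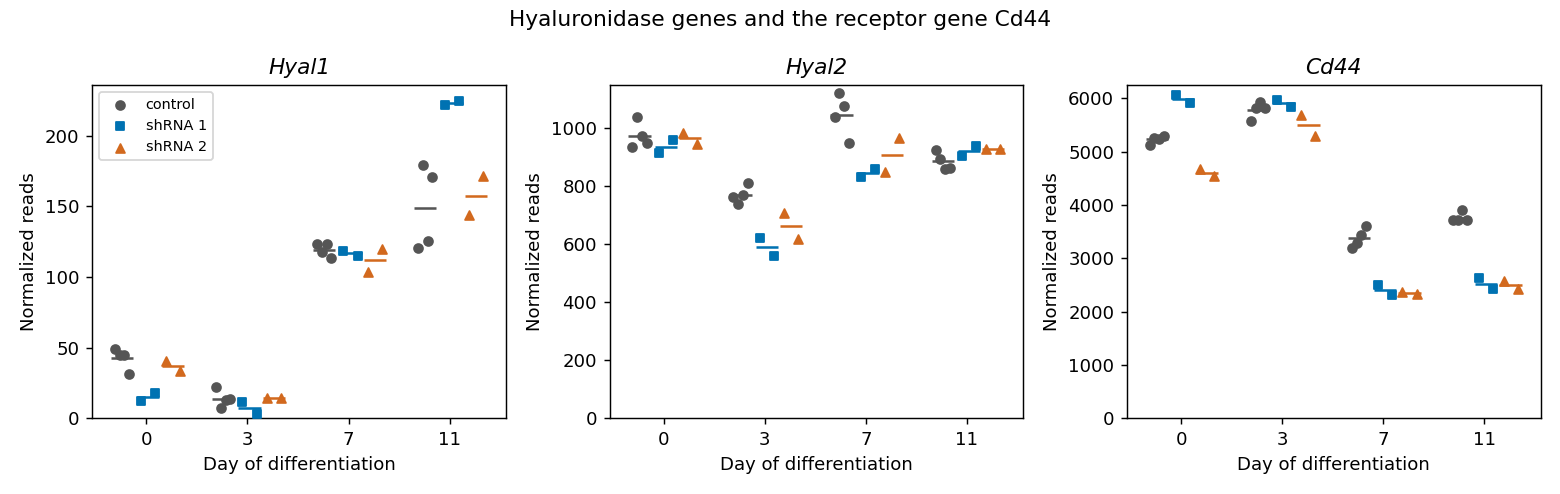
Normalized reads of Hyal1, Hyal2 and Cd44 by day. Points are single libraries, bars are means of 4 control libraries or 2 libraries of a hairpin, and the y axes start at 0. Hyal1 is highest at day 11, Hyal2 varies least, and Cd44 separates the knockdown libraries (2303 to 2624) from the control libraries (3189 to 3905) at days 7 and 11.

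Counted over the set, 6 of the 7 members passed the filter on low values in every fit, and Has1 in none. In control cells 5 of 6 were called at day 3 against day 0 (where 76.6% of all genes tested were called), 5 of 6 at day 7 (69.1%) and 6 of 6 at day 11 (64.6%, Cemip included, whose day 11 values chose the set). From day 3 to day 7 there were 5 of 6 (74.2%) and from day 7 to day 11 there were 4 of 6 (55.0%), again with Cemip among them. Most genes moved during differentiation, so a call in this course does not set the members apart. Between knockdown and control 1 of 6 was called at day 0 (Cemip, lower, against 3.25% of all genes in either direction and 2.44% lower), 1 of 6 at day 3 (Hyal2, lower, against 26.7% and 12.1%) and 3 of 6 at day 7 (Cemip, Cd44 and Hyal2, all lower, against 47.6% in either direction and 22.6% lower). At day 11, where the set was chosen, 33.0% of all genes were called, and all 4 knockdown libraries lay below all control libraries for Cemip, Has2 and Cd44, as they did for 17.3% of all genes tested. The control libraries are shared by the time course and the knockdown comparison, so a member's 2 changes are not independent of each other.

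The knockdown effect itself was compared between days. For Cd44 it was lower at day 7 than at day 0 by -0.50 (SE 0.093, limma adjusted p = 0.000161) and than at day 3 by -0.47 (SE 0.093, adjusted p = 0.000444). For Cemip the effect at day 7 was lower than at day 3 by -0.99 (SE 0.25, limma adjusted p = 0.00447). Its effect at day 7 differed from that at day 0 by -0.42 (SE 0.25, limma adjusted p = 0.215), or by -0.63 without shRNA 2 replicate 1 of day 7 (adjusted p = 0.026). The Hyal2 effect at day 7 differed from that at day 0 by -0.21 (SE 0.089, limma adjusted p = 0.0765), and this was called without shRNA 2 replicate 2 or control replicate 4 of day 7 (adjusted p = 0.0308 and 0.0358) and with equal totals (-0.28, adjusted p = 0.0185). At day 3 it differed from day 0 by -0.25 (SE 0.089, adjusted p = 0.0867), called without shRNA 2 replicate 1 of day 3 (adjusted p = 0.0272). The Hyal1 effect differed between days 7 and 0 by 0.43 (limma adjusted p = 0.151), called without shRNA 2 replicate 1 of day 0 (0.58, adjusted p = 0.0419). Of all genes, 7.57% were called for day 3 against day 0, 31.1% for day 7 against day 0 and 24.7% for day 7 against day 3, and 0, 1 and 2 of the 6 members were.

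The hairpins differed in 3 of 6 members at day 0 (Cemip, Hyal1 and Cd44, where 35.0% of all genes were called), 1 of 6 at day 3 (Has2, against 19.6%), 0 of 6 at day 7 (16.4%) and 1 of 6 at day 11 (Has2, against 22.0%). At day 7, 1 of the 6 members, Cemip, had an unadjusted limma p under 0.05, as had 3888 of the 13299 genes tested.

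**Figure D5:**
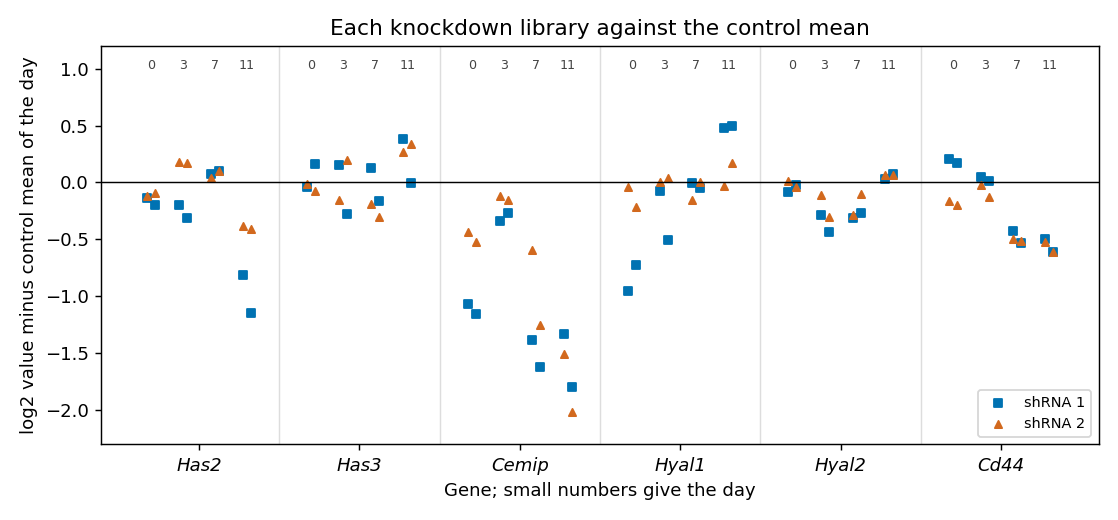
Each knockdown library minus the control mean of its day, in log2 units, for 6 members. Small numbers along the top give the day, squares are shRNA 1 and triangles shRNA 2. Cemip reaches the lowest values, Cd44 shows the hairpins apart at day 0 and together at days 7 and 11, and Has2 falls below control in all 4 libraries at day 11.

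Other genes moved with these results, and their part in them was not tested. The summed level of 10 adipocyte markers was 52210 to 56820 normalized reads in control libraries and 145100 to 216100 in knockdown libraries at day 7, where all 10 were called higher, as were 24.9% of all genes. It was 28880 to 34330 against 47660 to 65130 at day 3, where Hyal2 was called lower and all 10 markers were called higher (26.7% of all genes were called in either direction). It was 20080 to 20660 against 22310 to 23760 at day 0, with 1 of 10 called higher (3.25% of all genes in either direction), and 58970 to 69230 against 125300 to 150200 at day 11. Pparg, the master regulator of fat cell formation, had 3887 ± 108 normalized reads in control and 9010 ± 319 in knockdown cells at day 7 (SD, n = 4). The sum of 10 fibroblast markers was 643100 to 705900 in control and 532700 to 593300 in knockdown libraries at day 7, with 8 of 10 called lower, against 22.6% of all genes. It was 792500 to 837000 against 670900 to 757400 at day 0 (2 of 10 called lower, against 2.44%). At day 3 it was 331800 to 360200 against 296500 to 356000. There 3 of 10 were called lower and 1 higher, against 12.1% of all genes lower and 26.7% in either direction. At day 11 it was 740800 to 850900 against 632600 to 765900. Among the fibroblast markers Thy1, a fibroblast surface protein, had 3219 ± 87.2 in control and 1849 ± 117 in knockdown cells at day 7. Col1a1, the fibrillar collagen gene, had 83720 ± 4075 and 76180 ± 3179, which was not called (limma adjusted p = 0.05). In bulk RNA, fewer cells of a kind and less RNA per cell cannot be told apart. Of the macrophage and endothelial lists, 8 of 10 genes each were in the table. Macrophage markers summed to 746 to 855 normalized reads in control and 642 to 747 in knockdown libraries at day 0, and to 531 to 582 and 373 to 533 at day 7, with overlap on both days. They were lower in all knockdown libraries at day 3 (487 to 639 against 674 to 752) and higher in all of them at day 11 (982 to 1158 against 776 to 877). At day 7, 1 of 5 tested was called higher (Cd68, a lysosomal membrane protein, by 0.87, limma adjusted p = 0.000189) and 2 lower (Lyz2 and Cd14). At day 3, 1 of 5 was called lower (Cd14). Of all genes, 24.9% were called higher and 22.6% lower at day 7, and 12.1% lower at day 3. Endothelial markers summed to 67.35 to 91.1 in control and 47.1 to 56.6 in knockdown libraries at day 0 and to 22.2 to 40.8 and 13.2 to 21.2 at day 3, without overlap. They summed to 45.3 to 65.9 and 58.7 to 81.8 at day 7 and to 88.2 to 115 and 49.97 to 92.9 at day 11, with overlap, and neither of the 2 genes tested was called at day 0, 3 or 7.

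The enzymes that make the 2 sugar nucleotides for the synthases were mostly higher in knockdown cells at day 7. Of 14 tested, 10 were called higher and 1 lower, where 24.9% of all genes were called higher and 22.6% lower, and the median change was 0.33 against 0.01 over all genes. None was called at day 0, and 2 were called higher and 1 lower at day 3, where 26.7% of all genes were called (medians -0.03 and -0.06). At day 7 hexokinase 2 (Hk2), at the entry of glucose, was higher in knockdown by 0.91 (SE 0.062, limma adjusted p = 1.49e-08) and phosphoglucomutase (Pgm1) by 0.73 (SE 0.056, adjusted p = 5.43e-08). Both also serve glycolysis and glycogen metabolism. Ugdh, which makes UDP-glucuronic acid, was higher by 0.34 on that day (SE 0.057, limma adjusted p = 0.000138). Gfpt1 and Gfpt2, which open the route to UDP-N-acetylglucosamine, were higher by 0.26 (SE 0.046, adjusted p = 0.000233) and 0.44 (SE 0.141, adjusted p = 0.0202). Uap1, which makes UDP-N-acetylglucosamine, was higher in knockdown by 0.31 at day 7 (SE 0.083, limma adjusted p = 0.00633). At day 3 its difference from control was -0.21 (adjusted p = 0.0318). Its relative Uap1l1 was lower in knockdown at day 7 by 0.60 (SE 0.070, limma adjusted p = 4.75e-06). Has2 itself did not pass the test at either day.

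Other breakdown genes were mostly lower in knockdown than in control cells at days 3 and 7. At day 7, 4 of 5 tested were called lower and none higher (median -0.31), where 22.6% of all genes were called lower. At day 3 there were 3 of 4 (median -0.22), against 12.1% of all genes, and at day 0 none of 5 (median -0.03). Cemip2, a membrane protein related to Cemip that cuts hyaluronan at the cell surface, was lower in knockdown by 0.33 at day 3 (SE 0.103, limma adjusted p = 0.0371). At day 7 it was lower by 0.29 (SE 0.084, adjusted p = 0.0093). In control cells Cemip2 fell from 2472 ± 80.2 normalized reads at day 0 to 658 ± 33.6 at day 7 (SD, n = 4), a change of -1.82 (SE 0.052, limma adjusted p = 9.51e-26), where Cemip changed by -3.69. The lysosomal exoglycosidase genes Hexa and Gusb were lower in knockdown than in control cells at day 7, by 0.54 (SE 0.091, limma adjusted p = 0.000369) and 0.37 (SE 0.057, adjusted p = 7.61e-05). These enzymes also digest other sugar chains and glycolipids.

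Other hyaluronan receptors were compared between knockdown and control cells of the same day. Of 5 tested, 1 was called higher and 3 lower in knockdown at day 7 (median -0.23). At day 3 these were 1 and 2 (median 0.07), and at day 0 none was called (median -0.02). Of all genes, 47.6% were called at day 7 and 26.7% at day 3. Tlr2, an innate immune receptor, was lower in knockdown by 0.99 (SE 0.098, limma adjusted p = 4.96e-06) and the scavenger receptor gene Stab2 by 0.51 (SE 0.122, adjusted p = 0.00291) at day 7. Hmmr, whose protein also binds the mitotic spindle, was higher in knockdown by 0.52 at day 3 (SE 0.091, limma adjusted p = 0.000821) and by 0.87 at day 7 (SE 0.139, adjusted p = 0.00016). Layn, a membrane lectin for hyaluronan, was lower in knockdown by 0.45 at day 3 (SE 0.061, limma adjusted p = 0.000137) and by 0.23 at day 7 (SE 0.053, adjusted p = 0.0023). Of 8 hyaluronan-binding matrix genes tested in the same comparison, 2 were called higher and 4 lower at day 7 (median -0.12). At day 3 there were 1 higher and 3 lower of 7 (median -0.11). At day 0 there was 1 lower of 8 (median -0.06), where 3.25% of all genes were called. The shares at days 7 and 3 are to be read against the same 47.6% and 26.7% of all genes. Itih4, a member of the inter-alpha-inhibitor heavy chain family, was higher in knockdown by 1.06 (SE 0.217, limma adjusted p = 0.00179) at day 7. Prg4, which encodes lubricin, was higher by 0.93 (SE 0.127, adjusted p = 2.17e-05) on that day. At day 3 Prg4 was lower in knockdown than in control cells by 0.43 (SE 0.086, limma adjusted p = 0.00231). Ptx3, a pentraxin of the hyaluronan-rich matrix, was lower in knockdown by 0.67 at day 3 (SE 0.203, limma adjusted p = 0.0493) and by 0.60 at day 7 (SE 0.096, adjusted p = 0.000161). Tnfaip6, which moves heavy chains onto hyaluronan, was lower in knockdown by 0.49 at day 0 (SE 0.084, limma adjusted p = 0.0129) and higher by 0.33 at day 3 (SE 0.084, adjusted p = 0.0104).

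The genes whose patterns over the 32 libraries were most like that of Cemip, by Pearson's r of the log2 values among 13571 genes, were Snx18 (0.973), Epha4 (0.970), Fbln1 (0.970), Nfkbie (0.963) and Tulp4 (0.963). For Has2 they were Uba1 (0.966), Styk1 (0.957), Sumo3 (0.949), Atf6b (0.948) and Pyurf (0.945). The 32 points come from 12 groups of hairpin and day that share the course of differentiation, so these values describe likeness across days and arms and carry no test.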

How the data were processed

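Bulk RNA was sequenced from 32 libraries of 3T3-L1 cells, prepared with an Illumina TruSeq kit per the labels' protocols. The submitters' processing notes name TopHat2 2.1.0, Bowtie2 2.2.6, SAMtools 1.3.1 and HTSeq 0.6.1. Their roles, the genome build, the annotation, strand use and the transform are not given in the sources used here. The deposited table holds log2 values for 20560 genes, although it is named as normalized counts. Their form is that of an rlog-type (regularized log) transform, which pulls genes with few reads towards their mean. Inverting it gave whole reads: 98.93% of values came within 0.1 of a whole number, where chance gives 20%. For Cemip the largest distance was 0.17.

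Groups came from the sample titles. The 7 members and the lists (4 of other hyaluronan genes, 4 of cell type markers) were chosen with earlier results of these data known. Genes named from the hyaluronan lists are up to 3 per list and comparison with the largest called changes, except for 1 gene that is not reported here. For a few of these (Gfpt1, Gfpt2, Ugdh, Uap1 and Cemip2) the day 7 value was added for their role after it was seen. The day 7 knockdown value of Layn is also given, although Layn was not among the 3 receptors with the largest called changes there. The genes most like Cemip and Has2 are the 5 with the highest Pearson's r.

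limma 3.58.1 (R 4.3.3, trend and robust) was fitted to the deposited log2 values. Genes entered with 2 to the power of the value at least 10 in at least 4 libraries, and p-values were Benjamini-Hochberg adjusted over all genes tested. Knockdown was tested against control in 1 fit a day (both hairpins together), and the hairpins against each other in 3-group fits. The time course was tested in control libraries. Differences in the knockdown effect between days were tested in both arms, without the day 11 libraries. All 32 pairs of replicates checked differed by more than sampling noise, with chi-square per degree of freedom of 3.00 to 11.8. The fit and the inversion were tested on simulated data. Alternatives were other filters, scaling, fits and scales, and leaving out each library. No negative binomial test was applied to this transformed table. Positions are from GENCODE M21 (GRCm38), where 20521 gene IDs matched. Depth limits counting error only, since reads carry no molecular identifiers.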

Additional observations from a re-analysis of the deposited data

Results flagged for a closer look

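In the day 11 control group 2 members had 1 library far from the other 3, the same library for both. Has2 was lowest in control replicate 3, at a log2 value of 11.175 with the next at 11.276. Cd44 was highest in that replicate, at 11.932 with the next at 11.866. The gap took 0.871 and 0.930 of the group's range, past Dixon's critical value for 4 samples, and 48 groups were examined, where chance gives about 1 in 20. Leaving out any 1 library of day 11 kept the Has2 difference between -0.79 and -0.54 and the Cd44 difference between -0.58 and -0.55.

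The hairpins differed by limma in 5 cases. At day 0 shRNA 2 minus shRNA 1 was 0.633 for Cemip (adjusted p = 1.4e-07), 0.714 for Hyal1 (0.00139) and -0.367 for Cd44 (1.98e-08). For Has2 it was 0.427 at day 3 (8.26e-06) and 0.586 at day 11 (0.000201). The knockdown effect differed between days for Cd44, by -0.496 from day 0 to day 7 (limma adjusted p = 0.000161) and by -0.469 from day 3 to day 7 (0.000444), and for Cemip by -0.992 from day 3 to day 7 (0.00447). The 3 differences share the day 7 libraries.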

How the results depend on the processing

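Of the members' values with 1 library left out, 1224 kept their direction and their side of the threshold, 42 changed sign, 19 lost a call and 11 gained one; with the other settings 669 kept both. Every value that changed sign belonged to a difference that was not called. With 1 library left out these spanned zero: knockdown against control for Has3 at day 0 (-0.06 to 0.072), day 3 (-0.093 to 0.066) and day 7 (-0.222 to 0.009), for Cd44 at day 0 (-0.061 to 0.073) and day 3 (-0.043 to 0.013) and for Has2 at day 3 (-0.111 to 0.052). In control cells Has3 did so from day 7 to day 11 (-0.125 to 0.106). Between hairpins these were Has3 (-0.13 to 0.30) at day 3, Has2 (-0.044 to 0.014), Hyal1 (-0.131 to 0.033) and Cd44 (-0.081 to 0.029) at day 7, and Has3 (-0.074 to 0.305), Cemip (-0.453 to 0.06), Hyal2 (-0.014 to 0.035) and Cd44 (-0.069 to 0.043) at day 11. For the effect between days these were Has3 (-0.101 to 0.059) and Cd44 (-0.094 to 0.04) for day 3 minus day 0, Has3 (-0.23 to 0.001) for day 7 minus day 0, and Has3 (-0.203 to 0.028), Hyal1 (-0.039 to 0.179) and Hyal2 (-0.007 to 0.099) for day 7 minus day 3.

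Same-numbered libraries deviated together little: correlations between arms within a day were -0.005 to 0.215 (3 of 24 pairs over 0.1) and between control days -0.094 to 0.119 (1 of 24), so the numbers were not taken to pair the libraries. With the replicate number as a block, genes called in knockdown went from 430 to 0 at day 0 (unadjusted calls with no block 2609), from 3506 to 845 at day 3 and from 6328 to 4112 at day 7. In that fit Cemip at day 0 was -0.77 (limma adjusted p = 0.544), Hyal2 at day 3 was -0.25 (0.131), and Has3 at day 0 (-0.14), Has2 at day 3 (0.019) and Has3 at day 3 (0.041) changed sign; the Cemip difference between hairpins at day 7 became a call (0.58, 0.0167). With equal totals the hairpin differences of Has2 (0.023) and Cd44 (0.013) at day 7 changed sign.

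Genes called at day 0 were 261 without trend or robust fitting, 2409 in 1 fit of all 32 libraries and 3340 with the hairpins as separate groups, and 111 to 562 with 1 library left out. With 1 fit of all 32 and with separate groups Hyal1 at day 0 was called (limma adjusted p = 0.00484 and 0.00317), and Has2 with separate groups (0.00258). Separate groups gave 5311 at day 3, and 1 library less gave 2587 to 3883 at day 3 and 5658 to 6291 at day 7. Between hairpins at day 3 the count of 2572 became 1710 with no filter, 1454 without trend or robust fitting and 1633 to 2592 with 1 library left out. At day 7 the 2183 became 1035 without trend or robust fitting and 1003 to 2385, and at day 11 the 2916 became 1479 to 2928. The causes were not tested. With equal totals the share of calls that were higher went from 25.1% to 43.3% for knockdown at day 0, 50.1% to 38.6% for control day 3 against day 0, 45.8% to 61.9% between hairpins at day 7, and 56.9% to 43.1%, 55.2% to 39.9% and 54.9% to 44.6% for the effect at day 3 minus 0, day 7 minus 0 and day 7 minus 3. On log2 of rebuilt normalized reads plus 1, Cemip in knockdown at day 11 was -2.05 and Has3 0.49, and the Cemip effect at day 7 minus day 0 became a call (-1.40, limma adjusted p = 0.0451). Has3, Hyal1 and Cemip at day 7 rest on few reads, which limits their precision.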
